A study of Mus musculus with 13 samples.

Results

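Chromatin regulators are described here in the striatum of mice that lack 1 or both copies of the gene for STEP. They were taken from the authors' deposited table of 4423 Affymetrix probe sets, of which 3581 carry a single gene symbol. A probe set was a member if that symbol began with a family name such as Kdm, Jmjd, Jarid, Hdac, Ncor, Smarc, Chd, Arid, Brd, Phf, Cbx, Setd, Dnmt or Mbd. The rule found 45 probe sets of 34 genes and left 4378 other listed probe sets as the comparison. Ptpn5 encodes STEP, a tyrosine phosphatase enriched in striatum, which switches off MAP kinases and glutamate receptor signalling in neurons. All 13 arrays came from naive males on the C57Bl/6J background: 4 arrays of wild-type littermates, 5 of heterozygous (STEP +/-) and 4 of homozygous (STEP -/-) mice. The sources used here give no age, array type or construction of the knockout allele.

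Chromatin regulators set how tightly DNA is wound around histones. Writers such as methyltransferases and erasers such as demethylases and deacetylases add and remove chemical marks on histone tails. Readers with bromodomains, chromodomains or PHD fingers bind those marks, and ATP-driven remodellers of the SWI/SNF and CHD families slide or evict nucleosomes. Corepressors bring deacetylases to genes, and DNA methylation is kept up by its own enzymes. In striatal neurons several of these proteins, the class IIa deacetylases above all, respond to synaptic activity and kinase signalling.

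The table is itself a selection. Every listed probe set passed a fold change of 1.2 and a raw p of 0.05 when the authors compared heterozygous or homozygous with wild type. Of the members, 37 were listed through the heterozygous comparison alone, 5 through the homozygous comparison alone and 3 through both. Over the whole table these numbers were 3396, 549 and 478. In the authors' deposited table the members' heterozygous folds ran from 1.2 for Hdac10 to 1.43 for Phf21b, with adjusted p-values of 0.361 to 0.434. Their homozygous folds there ran from 1.24 for Chd1 to 1.38 for Hdac9, all with an adjusted p of 0.890. Counts of members that differed from wild type therefore follow in part from how the table was made, and they are descriptions. Levels here are linear PLIER intensities, and differences are of mean log2(intensity + 16), fitted with limma to all 45037 probe sets of the array.

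The targeted gene was checked first, because the deposited table and the value table of the same arrays disagree on 2 groups. In each of the 8 columns concerned, the intensities that the deposited table heads as wild type equal, for all 4423 probe sets, those of the arrays labelled homozygous, and the reverse. The 5 heterozygous columns equal the arrays of their own heading. Groups here follow the sample labels, as do the authors' deposited folds, of which 3872 of 3874 heterozygous and 1027 of 1027 homozygous values lay within 0.05 log2 of them. By these labels Ptpn5 (probe set 1423544_at) had an intensity of 3527 ± 276 (SD, n = 4) in wild type, 2503 ± 496 (SD, n = 5) in heterozygous and 1262 ± 232 (SD, n = 4) in homozygous striatum. The second probe set, 1425130_a_at, had 1649 ± 217, 1028 ± 231 and 485.7 ± 105. The homozygous arrays differed from wild type by -1.49 and -1.75 log2 (limma, adjusted p = 5.31e-06 and 4.48e-06), and an exact two-sided permutation test gave p = 0.0286 for each, the smallest that 70 splits allow. The heterozygous arrays differed from it by -0.51 and -0.69 log2 (exact permutation p = 0.0159 for each; limma adjusted p = 0.288 and 0.287).

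Arrays differed in overall brightness. Their median intensities ran from 143.4 in homozygous 1 to 200.8 in homozygous 2, with 198.4 in heterozygous 3 and 187.4 in heterozygous 1. The median difference over the whole array was 0.12 log2 for heterozygous and 0.092 for homozygous against wild type, and results are therefore also given after each array was centred on its median. Markers of cortical excitatory neurons, which a striatal dissection could include, were listed for 4 of 7 genes. Their summed intensity was 807 to 2462 in wild type, 2445 to 5085 in heterozygous and 991 to 2873 in homozygous arrays. Heterozygous minus wild type was 1.43 log2 for Slc17a7, 1.31 for Rprm and 1.09 for Tbr1, against 0.06, 0.38 and -0.34 for homozygous minus wild type. Both Tshz2 probe sets were above wild type in both groups but higher in homozygous (0.88 and 0.50) than in heterozygous arrays (0.54 and 0.14). Markers of other cells were listed for 1 of 5 vessel, 1 of 6 microglial, 2 of 7 astrocyte and 1 of 3 red cell genes. Homozygous minus wild type was 1.08 for Tagln (vessels), 0.41 for Itgam (microglia), -0.47 for Gfap (astrocytes) and -0.97 for Alas2 (red cells). Their heterozygous differences were 0.21, 0.24, -0.15 and -0.60. Alas2 ranged from 87 to 782 over wild-type arrays and from 88 to 135 over homozygous arrays, so these groups overlapped. Aldoc, the other listed astrocyte gene, went against Gfap, with 0.205 in homozygous and 0.41 in heterozygous arrays. None of these markers passed the adjusted threshold (limma), and they are named after their values were seen. They could be looked up only among the listed probe sets, which were selected for differing from wild type. The differences of all these markers, cortical ones included, follow in part from that selection. The log2 ratio of the 3′ to the 5′ control probe sets of Actb, a sign of RNA quality, was 0.475 ± 0.032 (SD, n = 4) in wild type, 0.526 ± 0.051 (SD, n = 5) in heterozygous and 0.441 ± 0.048 (SD, n = 4) in homozygous arrays. The part of these in the members' differences was not tested. Of 15 markers of medium spiny neurons, the main striatal cell, none is in the deposited table. The tissue was therefore not checked here, since Ptpn5 is the targeted gene and its level follows genotype.

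All 45 member probe sets were brighter in heterozygous than in wild-type arrays, by a median of 0.289 log2 and a range of 0.173 (Kdm2a 1444358_at) to 0.498 (Chd5). So were 4295 of the 4378 other listed probe sets and 36728 of the 45037 of the array. No member passed an adjusted p of 0.05, the lowest being 0.289 for Chd5 (limma), whereas 1 probe set of the whole array did (0.00222%). At an unadjusted p under 0.05, 38 of 45 members were higher and none was lower, beside 83.7% of the other listed probe sets and 10.8% of the whole array. The members' median was close to that of the other listed probe sets (0.31 log2) and above that of the array (0.12 log2). After median centring all 45 were still higher, by a median of 0.174 log2, and 28 had an unadjusted p under 0.05, beside 49.2% of the other listed probe sets and 5.78% of the array. Higher then were also 4228 of the 4378 other listed probe sets and 23307 of the 45037 of the array. Over the whole array, 4870 probe sets were higher and 69 lower at that threshold before centring, and 2602 higher and 1860 lower after it. Before centring the members' share was thus near that of the other listed probe sets. After centring it was above theirs, and that gap was not tested. The count of 38 was 18 without heterozygous 1 or without heterozygous 3, 22 to 24 without wild type 2, 3 or 4, and 22 without the 4 arrays of highest or lowest median.

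The groups did not overlap for 16 member probe sets of 14 genes, in which every heterozygous array exceeded every wild-type array. The share was 27.5% for the other listed probe sets and 6.55% for the array. After centring 9 members had no overlap, beside 10.9% and 1.56%. The genes then were Brd2, Brd3, Dnmt1, Jmjd5, Kdm2a, Ncor1, Phf13 and Smarcc2. They span readers, a DNA methyltransferase, demethylases, a corepressor and a remodeller subunit, and no single role held them all.

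**Figure D1:**
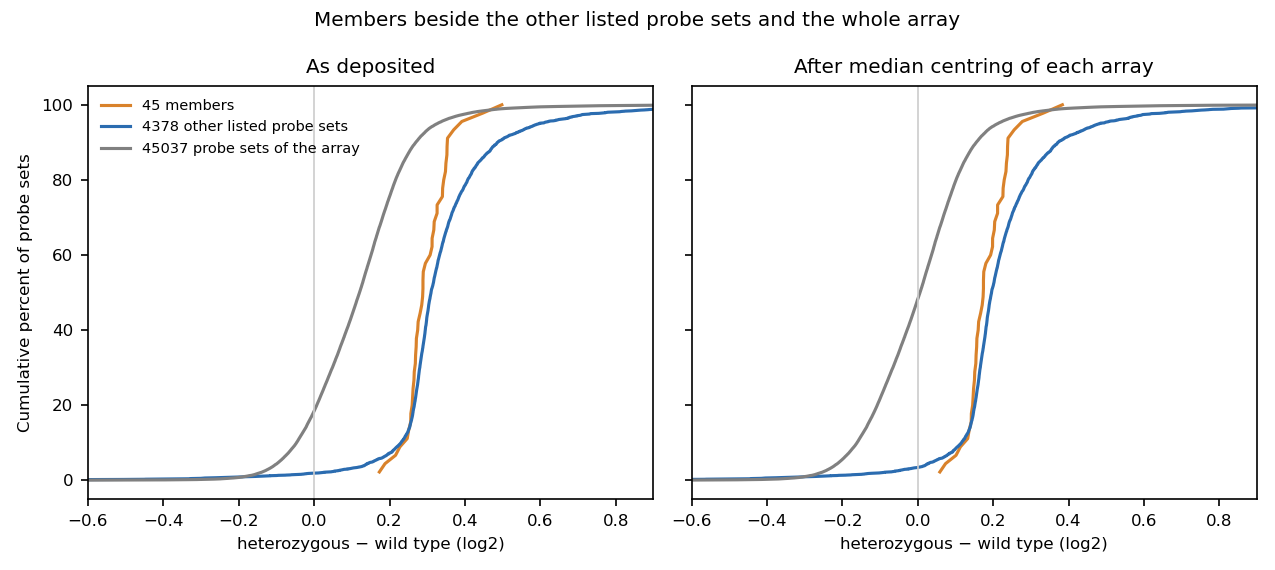
Cumulative percent of probe sets (vertical axis) by heterozygous minus wild type difference in log2 (horizontal axis, drawn from -0.6 to 0.9), for the 45 members, the 4378 other listed probe sets and all 45037 probe sets, as deposited and after median centring. The members' curve lies at the other listed probe sets' curve up to about its median of 0.289 and ends at 0.498, to the right of the whole array in both panels.

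All 45 members were brighter in homozygous than in wild-type arrays, but by a median of 0.167 log2, beside 0.188 for the other listed probe sets and 0.092 for the array. Brighter too were 4154 of the 4378 other listed probe sets and 36772 of the 45037 of the array. No member passed the adjusted threshold (limma, adjusted p from 0.908 to 0.928), against 4 probe sets of the array (0.00888%). At an unadjusted p under 0.05, 6 members were higher and none lower, beside 20.9% of the other listed probe sets and 2.82% of the array. They were both probe sets of Kdm6b, with Hdac9, Jarid2, Kdm2a (1444358_at) and Phf16. All 6 had been listed through the homozygous comparison, 5 of them through it alone. After centring the median was 0.075 log2, with 37 members above 0 and 8 below it, and 5 passed an unadjusted p of 0.05, beside 14.3% and 1.88%. Above 0 then were 3694 of the 4378 other listed probe sets and 22506 of the 45037 of the array. Array-wide, 1268 probe sets were higher and 94 lower at that threshold before centring, and 847 higher and 918 lower after it. Only 3 members had homozygous arrays that all exceeded the wild-type arrays, both Kdm6b probe sets and 1 of Phf20l1, beside 8.36% of the other listed probe sets and 1.30% of the array. After centring the Kdm6b probe sets were the 2 that remained, beside 6.78% and 1.0%. The 2 comparisons with wild type share their 4 wild-type arrays, so their signs are not independent. The count of 6 was 22 without homozygous 1, 3 without wild type 4 or homozygous 3, 2 without homozygous 2, and 16 without the 4 arrays of highest or lowest median.

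Set directly against heterozygous arrays, homozygous arrays were dimmer for 40 members and brighter for 5. The counts were 3670 and 708 for the other listed probe sets and 28075 and 16961 for the array. The brighter members were both Kdm6b probe sets, Jarid2, Kdm2a (1444358_at) and Phf16. These are the 5 members listed through the homozygous comparison alone, so the split follows in part from how the table was made. The median was -0.134 log2, beside -0.138 for the other listed probe sets and -0.031 for the array. At an unadjusted p under 0.05, 6 members were lower and none higher, beside 14.5% and 2.04%, and 11 were lower after centring, beside 18.1% and 3.38%. These counts share the heterozygous arrays that brought most members into the table. Every adjusted p was 1 as deposited (limma), whereas 3 probe sets of the array passed (0.00666%). The 6 were Chd5, Smarcc2, Smarcc1, Brd9 and 2 probe sets of Hdac4. The count of 6 was 0 without heterozygous 1, 3 or 5 or homozygous 3, 2 without homozygous 1, 9 without heterozygous 4 and 1 without the 4 arrays of highest or lowest median, where the members' median was 0.008. Across the array, 277 probe sets were higher and 921 lower before centring, and 1019 higher and 1520 lower after it.

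The mean over the 45 members shows how far single arrays differed within each group. In wild type it lay within a narrow band, from -0.185 to -0.161 log2 relative to the mean of all 13 arrays (-0.172 ± 0.010, SD, n = 4). In heterozygous arrays it spread from -0.100 to 0.334 (0.128 ± 0.171, SD, n = 5), and in homozygous arrays from -0.185 to 0.169 (0.011 ± 0.157, SD, n = 4). Members were listed for differing from these wild-type arrays, so a low and narrow wild-type band can follow in part from that selection. Heterozygous 3, a bright array, was the highest of all 13 for 27 of 45 members. Homozygous 1, the dimmest array, was the lowest for 16. After centring the spread narrowed to -0.099 ± 0.053, 0.086 ± 0.093 and -0.008 ± 0.061. Heterozygous 5 then held the highest value for 25 members, and heterozygous 4, at -0.030, was the lowest of its group.

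**Figure D2:**
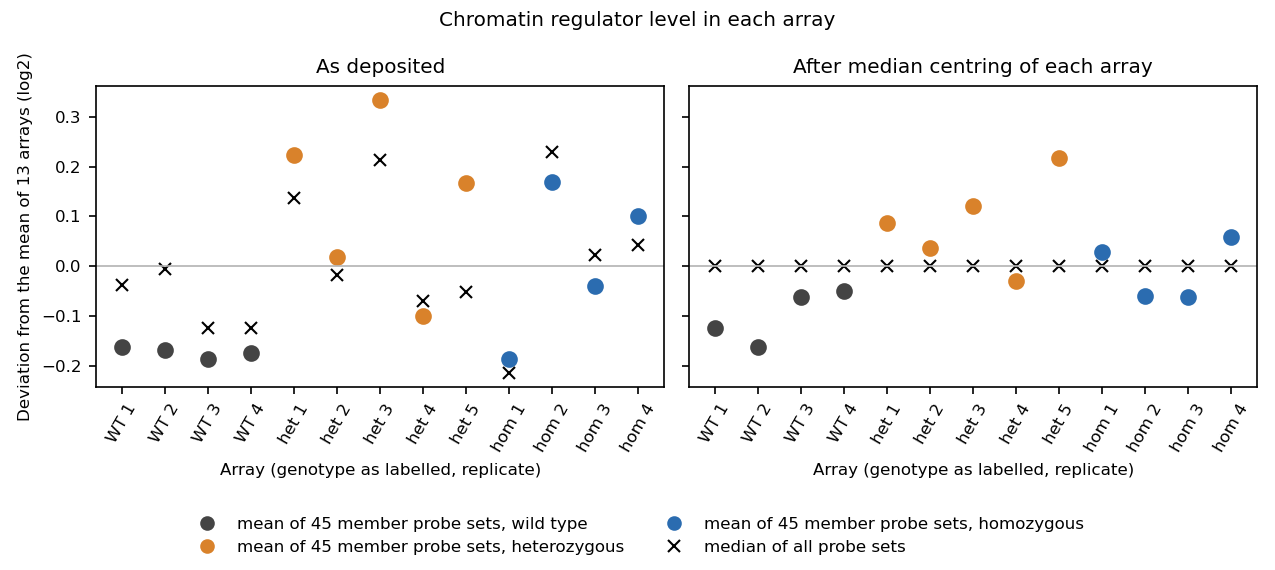
Mean deviation of the 45 members from their mean over 13 arrays (filled circles, log2, vertical axis) in each array (horizontal axis), coloured by genotype, with the deviation of the array's median over all probe sets (crosses), as deposited and after median centring. As deposited the wild-type arrays lie from -0.185 to -0.161 while heterozygous arrays run from -0.100 to 0.334 and homozygous arrays from -0.185 to 0.169.

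Histone demethylases and JmjC proteins formed the class with the most members at an unadjusted p under 0.05 in homozygous striatum, 4 of 10 probe sets of 7 genes, of which 2 belong to Kdm6b. The share over the other listed probe sets was 20.9% and over the array 2.82%. After centring the class had 3, beside 14.3% and 1.88%. The 4 were listed through the homozygous comparison alone, so the count of 4 in part restates how the table was made. Kdm6b, which removes the repressive methyl mark placed by Polycomb complexes and is induced by activity and inflammation in many cells, was the gene with the smallest p there. Probe set 1456610_at read 271, 257, 299 and 277 in wild type, 336, 319, 435, 263 and 333 in heterozygous and 311, 417, 358 and 366 in homozygous arrays. Its second probe set, 1440346_at, read 213, 175, 192 and 181 in wild type, 285, 201, 313, 185 and 216 in heterozygous and 218, 317, 262 and 249 in homozygous arrays. In both, the lowest homozygous array exceeded the highest wild-type array, while heterozygous arrays overlapped wild type. The homozygous difference was 0.371 (SE 0.137) and 0.418 (SE 0.152) (limma, adjusted p = 0.908 for both). It ran from 0.305 to 0.439 and from 0.327 to 0.496 when 1 array was left out, and was 0.279 and 0.326 after centring. The heterozygous difference was 0.26 and 0.288, and was 0.168 and 0.191 without heterozygous 3. The homozygous minus heterozygous difference was 0.111 and 0.131, and 0.030 and 0.039 at its lowest with 1 array left out.

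Jarid2 carries a demethylase family name but has no demethylase activity and serves as an accessory subunit of a Polycomb complex. It read 713, 561, 533 and 676 in wild type, 778, 713, 899, 632 and 730 in heterozygous and 627, 937, 766 and 757 in homozygous arrays. Heterozygous 2 and 4 and homozygous 1 lay within the wild-type range, and the other knockout arrays above it. Its differences from wild type were 0.304 (SE 0.140, limma adjusted p = 0.908) in homozygous and 0.268 (SE 0.132, adjusted p = 0.458) in heterozygous arrays. The direct homozygous minus heterozygous difference, 0.035, took both signs as arrays were left out.

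Kdm1a is a flavin-dependent demethylase of corepressor complexes. Probe set 1426762_s_at read 980, 950, 1072 and 1021 in wild type, 1423, 1174, 1404, 1109 and 1360 in heterozygous and 963, 1299, 1143 and 1296 in homozygous arrays. All heterozygous arrays exceeded wild type, though not after centring, and homozygous 1 lay inside the wild-type range. The heterozygous difference was 0.353 (SE 0.117, limma adjusted p = 0.340), and the homozygous difference was 0.213. Its second probe set, 1426761_at, gave 0.313 and 0.186. Kdm2a, which binds unmethylated CpG-rich promoters, was split between its probe sets. Probe set 1444358_at, at a dim 42 to 71, was 0.282 higher in homozygous and 0.173 higher in heterozygous arrays, while the brighter 1455942_at was 0.152 and 0.313 higher. The class also holds Kdm5c, an X-linked demethylase of active promoter marks that is mutated in human intellectual disability, with Jmjd4 and Jmjd5 (now Kdm8). Its 10 probe sets ran from 0.151 to 0.418 in homozygous and from 0.173 to 0.353 in heterozygous arrays relative to wild type, with medians of 0.199 and 0.279.

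The histone methyltransferases covered by the rule in the table were Setd5 and Setd8. Setd5, a SET-domain protein linked to human intellectual disability, read 543, 504, 567 and 562 in wild type, 755, 598, 876, 584 and 718 in heterozygous and 512, 626, 597 and 746 in homozygous arrays. Setd8 (now Kmt5a), which adds a single methyl group to histone H4, read 750, 700, 686 and 786, then 945, 837, 976, 793 and 853, then 654, 855, 829 and 878. For both genes all heterozygous arrays exceeded wild type, though not after centring, and homozygous 1 was the lowest homozygous array. The heterozygous differences were 0.352 (SE 0.131) and 0.263 (SE 0.115), and the homozygous ones 0.173 (SE 0.138) and 0.129 (SE 0.121). The homozygous difference of Setd5 was 0.082 without homozygous 4, and that of Setd8 was 0.084 without homozygous 4 and 0.223 without homozygous 1. Homozygous minus heterozygous was -0.179 (SE 0.131) and -0.134 (SE 0.115), with an adjusted p of 1 for each (limma).

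Histone deacetylases had homozygous differences from wild type of 0.048 to 0.439, and the spread among them was not tested. All 7 probe sets of 5 genes had an unadjusted p under 0.05 for heterozygous against wild type, beside 83.7% of the other listed probe sets and 10.8% of the array, with differences of 0.247 to 0.447. After centring 3 of the 7 did, beside 49.2% and 5.78%. Against wild type the homozygous median was 0.067, and it was -0.025 after centring, with only Hdac6 and Hdac9 then above 0. Hdac4 and Hdac9 are class IIa enzymes that shuttle between nucleus and cytoplasm with neuronal activity. Hdac9 read 170, 203, 263 and 162 in wild type, 325, 204, 323, 209 and 336 in heterozygous and 219, 283, 215 and 405 in homozygous arrays. Wild type 3 overlapped both other groups. The homozygous difference of 0.439 (SE 0.193, limma adjusted p = 0.908) was 0.255 without homozygous 4, and the heterozygous difference was 0.447 (SE 0.184).

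Hdac4 was measured by 3 probe sets. Probe set 1436758_at read 394, 504, 410 and 453 in wild type, 570, 541, 584, 477 and 665 in heterozygous and 439, 490, 445 and 495 in homozygous arrays. The homozygous values lay inside the wild-type range, while 4 of 5 heterozygous arrays exceeded it. Its difference was 0.354 (SE 0.118) for heterozygous and 0.088 (SE 0.125) for homozygous against wild type, and -0.265 (SE 0.118) between homozygous and heterozygous. Over the 3 probe sets the ranges were 0.251 to 0.354, 0.066 to 0.088 and -0.281 to -0.184. After centring the homozygous minus wild type difference turned to -0.003 (1436758_at) and -0.025 (1454693_at). Before centring it ran from 0.039 (without wild type 1) to 0.154 (without wild type 2) for 1436758_at. Hdac6, the tubulin deacetylase of the cytoplasm, read 668, 670, 728 and 658, then 889, 719, 992, 670 and 952, then 699, 927, 749 and 892. Both knockout groups overlapped wild type, with differences of 0.289 (SE 0.129) for heterozygous and 0.249 (SE 0.136) for homozygous arrays.

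Of the nuclear receptor coregulators, Ncor1 is a corepressor that links nuclear receptors to deacetylases, and both of its probe sets were higher in heterozygous than in wild-type arrays. Probe set 1423202_a_at read 1261, 1262, 1318 and 1287 in wild type, 1647, 1488, 1899, 1375 and 1781 in heterozygous and 1255, 1484, 1492 and 1458 in homozygous arrays. Every knockout array exceeded wild type except homozygous 1, which lay below it. Its second probe set, 1423200_at, read 1741, 1656, 1723 and 1681, then 2218, 1921, 2255, 1791 and 2113, then 1522, 2097, 1922 and 1969, with homozygous 1 below wild type. The heterozygous differences were 0.34 (SE 0.111, limma adjusted p = 0.333) and 0.269 (SE 0.111), the homozygous ones 0.145 (SE 0.117) and 0.132 (SE 0.117). For 1423200_at the latter was 0.229 without homozygous 1 and 0.076 without homozygous 2.

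The 3 subunits of the SWI/SNF complex had their highest mean in heterozygous arrays. Smarcc2 and Smarcc1 are scaffold subunits of the complex, and Smarca2 is one of its ATPases. Smarcc2 read 1468, 1418, 1322 and 1427 in wild type, 1819, 1660, 2166, 1516 and 1838 in heterozygous and 1389, 1535, 1318 and 1731 in homozygous arrays. All heterozygous arrays exceeded wild type, and homozygous arrays lay on both sides of it. Smarcc1 read 381, 327, 301 and 337, then 492, 380, 557, 363 and 424, then 302, 428, 341 and 370. The heterozygous differences were 0.341 (SE 0.116) and 0.37 (SE 0.135), with limma adjusted p-values of 0.351 and 0.389. Against heterozygous arrays the homozygous ones differed by -0.265 (SE 0.116) and -0.282 (SE 0.135), with an adjusted p of 1 for each. Against wild type they differed by 0.076 and 0.088, which turned to -0.016 and -0.004 after centring. With 1 array left out these ran from 0.003 (without homozygous 4) to 0.133 (without homozygous 3) for Smarcc2, and from 0.004 (without homozygous 2) to 0.166 (without homozygous 1) for Smarcc1.

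CHD remodellers included the member with the lowest adjusted p. Chd5, a neuronal remodeller of the NuRD complex, read 727, 851, 868 and 789 in wild type, 1179, 1089, 1279, 833 and 1445 in heterozygous and 988, 964, 782 and 1001 in homozygous arrays. Heterozygous 4 and homozygous 3 lay inside the wild-type range and all the others in their groups above it. The heterozygous difference was 0.498 (SE 0.135, fold 1.41, limma adjusted p = 0.289), and it was 0.384 after centring. Without heterozygous 4 it was 0.611 with an adjusted p of 0.0359 (limma), the lowest over the alternatives, whose highest was 0.728. The homozygous difference was 0.2 (SE 0.142), and homozygous minus heterozygous was -0.298 (SE 0.135). Chd3, the related NuRD ATPase, read 3002, 2611, 2724 and 2685, then 3751, 2975, 4105, 2840 and 3542, then 2894, 3494, 2843 and 3396. Wild type 1 overlapped both other groups, and the differences were 0.308 (SE 0.115) and 0.191 (SE 0.121). Chd1, the remaining CHD gene, was listed through both comparisons.

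**Figure D3:**
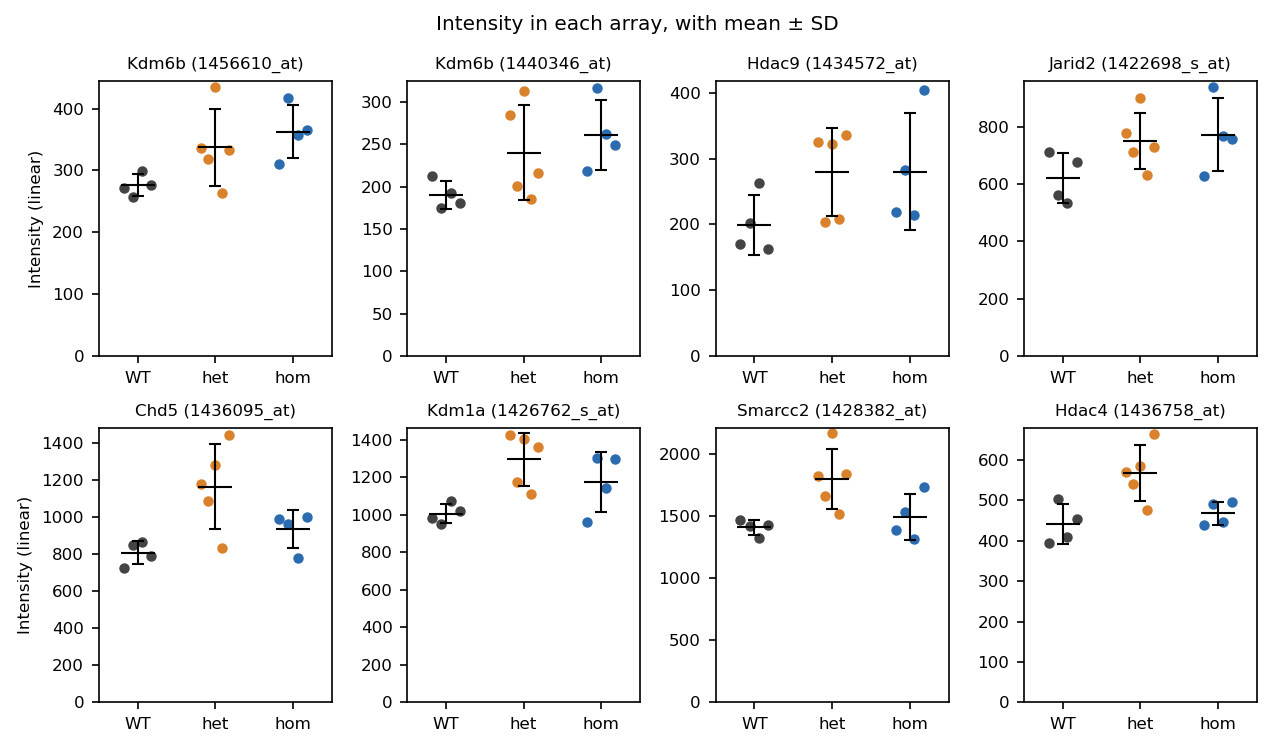
Linear intensity (vertical axis, from 0) of 8 member probe sets in each array by genotype (WT, wild type; het, heterozygous; hom, homozygous), with horizontal bars at the mean and whiskers of 1 SD. Homozygous arrays of both Kdm6b probe sets lie above all wild-type arrays, whereas homozygous values of Hdac4 (439 to 495) lie within the wild-type range of 394 to 504.

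Readers of histone marks made up the largest class, with 13 probe sets of 9 genes. In heterozygous arrays 11 had an unadjusted p under 0.05, beside 83.7% of the other listed probe sets and 10.8% of the array. Their class had heterozygous differences of 0.188 to 0.392. In homozygous arrays 1 had such a p, beside 20.9% and 2.82%, and the differences were 0.056 to 0.345. After centring the counts were 8 and 2, beside 49.2% and 14.3% of the other listed probe sets and 5.78% and 1.88% of the array. Cbx5, the heterochromatin protein HP1 alpha, read 1474, 1384, 1329 and 1411 in wild type, 1822, 1553, 2199, 1405 and 1663 in heterozygous and 1328, 1747, 1402 and 1614 in homozygous arrays. Brd2 (1437210_a_at), a bromodomain protein that binds acetylated histones, read 1112, 1106, 1079 and 1174, then 1339, 1257, 1584, 1152 and 1435, then 1053, 1317, 1160 and 1348. In both genes heterozygous 4 lay inside the wild-type range. The heterozygous differences were 0.285 (SE 0.124) and 0.265 (SE 0.114), and the homozygous ones 0.113 (SE 0.130) and 0.118 (SE 0.120). The latter ran from 0.045 (without homozygous 2) to 0.175 (without homozygous 1) for Cbx5 and from 0.068 (without homozygous 4) to 0.185 (without homozygous 1) for Brd2. The second Brd2 probe set, 1423502_at, gave 0.275 and 0.177, and the 3 probe sets of its relative Brd3 gave 0.281 to 0.326 and 0.144 to 0.234.

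Brd9, the bromodomain subunit of a non-canonical SWI/SNF complex, had values close to those of Smarcc2. It was 0.295 (SE 0.108) higher in heterozygous arrays and 0.056 (SE 0.114) higher in homozygous arrays than in wild type. The latter was -0.036 after centring and ran from 0.022 (without wild type 1) to 0.091 (without wild type 2). Between homozygous and heterozygous arrays it differed by -0.239 (SE 0.108). Phf16 (now Jade3), an X-linked scaffold of a histone acetyltransferase complex, was 0.345 (SE 0.161) higher in homozygous and 0.188 (SE 0.153) higher in heterozygous arrays. It was dim, at 91 to 176, and the homozygous difference was 0.196 without homozygous 2. Homozygous minus heterozygous was 0.157, and 0.007 without homozygous 2, while the heterozygous difference was 0.108 without heterozygous 3 and 0.123 without heterozygous 1. Phf20l1, a reader of methylated lysine, gave 0.319 and 0.326 in heterozygous and 0.272 and 0.236 in homozygous arrays over its 2 probe sets, 1418960_at and 1437563_at. Phf3, Phf13 and Phf21b complete the class.

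The DNA methylation genes covered by the rule in the table were Dnmt1 and Mbd4. Dnmt1, the maintenance methyltransferase, read 638, 671, 639 and 633 in wild type, 822, 718, 911, 676 and 789 in heterozygous and 578, 780, 709 and 748 in homozygous arrays. Mbd4, a glycosylase that repairs deaminated methylcytosine, read 193, 205, 202 and 182, then 235, 221, 317, 222 and 284, then 195, 211, 239 and 218. Every heterozygous array exceeded wild type for both genes, though after centring only for Dnmt1. The heterozygous differences were 0.266 (SE 0.118) and 0.35 (SE 0.122, limma adjusted p = 0.368), and the homozygous ones 0.113 (SE 0.124) and 0.13 (SE 0.129). The homozygous difference of Dnmt1 was 0.062 without homozygous 2 and 0.203 without homozygous 1, and that of Mbd4 was 0.083 without homozygous 3. Homozygous minus heterozygous was -0.152 (SE 0.118) and -0.22 (SE 0.122), with an adjusted p of 1 for each (limma). Arid5b, an AT-rich DNA-binding protein and the sole member of its class, read 56, 58, 56 and 56, then 83, 68, 70, 61 and 61, then 56, 66, 59 and 76, near the dim end of the members. Its differences were 0.216 (SE 0.113) and 0.141 (SE 0.119), the latter 0.073 without homozygous 4. No histone acetyltransferase gene covered by the rule was in the table.

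**Figure D4:**
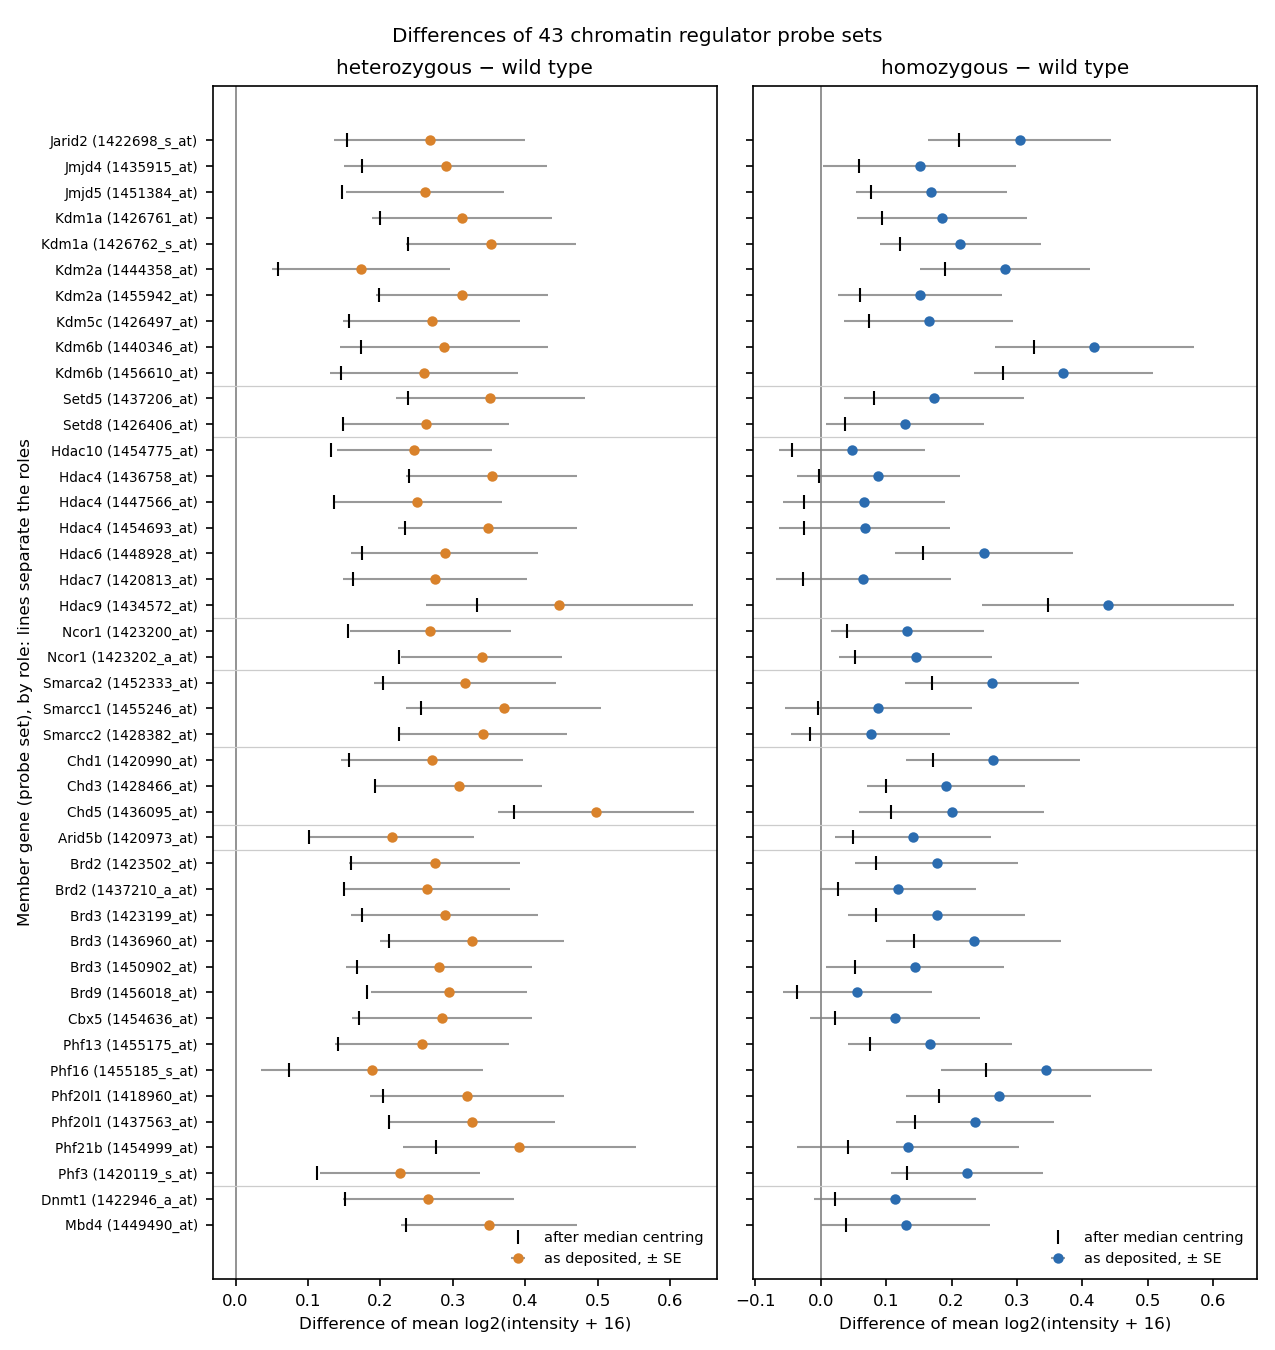
Difference of mean log2(intensity + 16) with its SE (points and bars, horizontal axis) for each of 43 member probe sets (vertical axis), ordered by role, for heterozygous minus wild type and homozygous minus wild type. Vertical ticks give the values after median centring. All 43 points lie above 0 in both panels, and 8 centred values fall below 0 in the homozygous panel, those of Hdac10, Hdac7, Hdac4, Smarcc1, Smarcc2 and Brd9.

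For 9 genes the table lists several probe sets, 20 in all. The largest gap within a gene in the heterozygous comparison was 0.14 log2, in Kdm2a, whose probe sets also took opposite signs in homozygous minus heterozygous (-0.161 and 0.109). Probe sets of 1 gene share that gene's RNA and are not independent, and those ending in _s_at can also detect other transcripts. The members' genes spanned a median of 52.5 kb in the RefSeq annotation, beside 33.0 kb for the other listed genes and 17.1 kb for all protein-coding genes. Jmjd5 lies on chromosome 7, which also carries Ptpn5, and 3 members (Hdac6, Kdm5c and Phf16) on the X chromosome.

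Promoter windows from 250 bases before to 50 bases after the gene start were available for 26 of the 34 genes (RefSeq, GRCm38.p6). They held a median of 27.5 CG dinucleotides, beside 22.0 in the other listed genes and 13 in all protein-coding genes. Motifs were searched by their letters on both strands. The GC box GGGCGG was found in 17 of 26 windows (65.4%), beside 67.5% of the other listed genes and 46.3% of all. The cAMP response element TGACGTCA was found in 0 of 26, beside 3.8% and 2.3%, and its core TGACG, which the full element contains, in 4 (15.4%), beside 30.3% and 23.8%. The AP-1 site TGACTCA was found in 2 (7.7%), beside 3.3% and 4.6%. The windows below belong to the 2 genes with the smallest p in each comparison with wild type that have one, Hdac9 and Jarid2 for homozygous and Chd5 and Ncor1 for heterozygous, and capitals mark motif matches. They show the contrast between a window with no CG dinucleotide (Hdac9, chr12:34917046-34917345, minus strand) and windows rich in it, with 24 in Jarid2 (chr13:44730524-44730823, plus strand), 32 in Chd5 (chr4:152338401-152338700, plus strand) and 36 in Ncor1 (chr11:62457283-62457582, minus strand). Chd5 holds 3 GC boxes and 1 such core, Ncor1 2 GC boxes, Jarid2 1 GC box and Hdac9 no match. A match is a description of the letters and not a bound site.
Hdac9: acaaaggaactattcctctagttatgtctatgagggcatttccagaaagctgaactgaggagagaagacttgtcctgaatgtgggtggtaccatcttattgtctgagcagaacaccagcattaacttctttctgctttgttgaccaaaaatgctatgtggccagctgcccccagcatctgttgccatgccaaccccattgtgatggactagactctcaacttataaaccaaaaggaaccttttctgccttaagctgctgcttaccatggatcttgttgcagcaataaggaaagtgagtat
Jarid2: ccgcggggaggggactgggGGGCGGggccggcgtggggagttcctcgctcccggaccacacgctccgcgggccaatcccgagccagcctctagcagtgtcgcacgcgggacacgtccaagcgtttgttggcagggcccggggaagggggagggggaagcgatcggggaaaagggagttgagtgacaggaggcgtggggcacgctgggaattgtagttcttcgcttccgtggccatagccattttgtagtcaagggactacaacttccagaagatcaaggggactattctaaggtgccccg
Chd5: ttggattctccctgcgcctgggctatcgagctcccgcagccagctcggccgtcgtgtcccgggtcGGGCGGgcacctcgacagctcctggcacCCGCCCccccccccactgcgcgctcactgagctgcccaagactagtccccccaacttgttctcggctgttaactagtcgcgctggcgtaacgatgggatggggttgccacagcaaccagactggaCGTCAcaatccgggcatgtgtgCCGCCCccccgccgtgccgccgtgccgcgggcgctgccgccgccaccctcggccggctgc
Ncor1: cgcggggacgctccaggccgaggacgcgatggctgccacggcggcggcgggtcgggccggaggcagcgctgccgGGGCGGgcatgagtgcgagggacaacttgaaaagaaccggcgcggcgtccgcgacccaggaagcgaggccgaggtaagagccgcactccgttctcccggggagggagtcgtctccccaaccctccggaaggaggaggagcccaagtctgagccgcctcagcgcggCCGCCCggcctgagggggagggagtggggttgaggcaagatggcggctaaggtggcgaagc

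Other chromatin genes outside the naming rule were counted in the same way. Of 70 such genes, 13 were in the table with 15 probe sets: Asxl1, Baz1a, Baz2a, Gatad2b, Gtf3c4, Ing1, Ing2, Mta1, Rcor1, Sin3b, Suv39h1, Whsc1 and Whsc1l1. All 15 were higher in both knockout groups than in wild type, by medians of 0.283 log2 in heterozygous and 0.163 in homozygous arrays. So were 4295 and 4154 of the 4378 other listed probe sets, and 36728 and 36772 of the 45037 of the array. At an unadjusted p under 0.05, 13 and 3 of the 15 were higher and none lower, beside 83.7% and 20.9% of the other listed probe sets and 10.8% and 2.82% of the array. Of the 15, 0 passed the adjusted threshold in either comparison (limma). Homozygous minus heterozygous gave a median of -0.126, with 3 probe sets above 0. Baz1a, singled out after its values were seen, went against that median, with homozygous differences from wild type of 0.508 and 0.512 and heterozygous ones of 0.165 and 0.14. These probe sets passed the same selection as the members. In bulk striatum, fewer cells of a type and less RNA per cell cannot be told apart.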

How the data were processed

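Total RNA from striatum in 13 samples was hybridised to 1-colour Affymetrix arrays. Per the submitters' processing notes the deposited intensities were made with PLIER, with no version given. The value table holds the authors' intensity of 45101 probe sets per array on a linear scale, and 64 control probe sets were left out of the tests. The authors' deposited table of 4423 selected probe sets gives, per the file headers, fold changes, raw p-values and adjusted p-values for 2 comparisons with wild type. Gene names come from that table alone, so probe sets outside it are unnamed here. Its columns headed wild type and homozygous hold each other's arrays (all 4423 values equal within 0.51), and groups were therefore taken from the sample labels.

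Limma 3.58.1 (R 4.3.3) was fitted to log2(intensity + 16) of the 13 arrays with only genotype in the model (lmFit, eBayes with an intensity trend, two-sided), with Benjamini-Hochberg adjustment over 45037 probe sets and a threshold of 0.05. The offset understates differences of dim probe sets. The labels number the samples within each genotype and do not say that each came from a separate animal, so p-values measure the spread between these samples, which may be technical. The number of arrays limits the precision, as there is no read depth.

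The members and gene lists were chosen with earlier results of these data known. Differences are printed for the 5 member probe sets in each direction with the smallest p per comparison and for the 2 genes of highest mean intensity per role. Array values are printed for the latter genes, and for Kdm6b and Hdac9, which were chosen for this after their values were seen. Other chromatin genes are named as list members. All 34 genes matched RefSeq (GRCm38.p6) by Entrez ID. Alternatives were other offsets (1 and 32), probe sets with a mean over 100, quantile normalization, median centring, no intensity trend, a replicate block, a fit of only the groups compared, array weights, the listed probe sets alone with at least 35653 tests, exchanged headings and each array left out. Leaving out the 4 arrays of highest or lowest median was added after seeing the data. The correlations of same-numbered samples' deviations ran from -0.448 to 0.186, so replicate numbers were not taken to pair samples. Markers of other cells in the table were 2 of 7 astrocyte, 1 of 6 microglial, 1 of 5 vessel, 1 of 3 red cell and 0 of 6 oligodendrocyte genes. A member gene is counted among the members but not reported singly here.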

Additional observations from a re-analysis of the deposited data

Results flagged for a closer look

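Among 75 sets of one probe set in one genotype, 3 held an array that stood apart from the rest of its group by Dixon's test, and chance flags about 1 in 20 such sets. Chd5 (1436095_at) had an intensity of 782 in homozygous 3, against 964 to 1001 in the other homozygous arrays. Ncor1 (1423202_a_at) had 1255 in homozygous 1, against 1458 to 1492 in the others, and homozygous 1 was also the array of lowest median intensity. Dnmt1 (1422946_a_at) had 671 in wild type 2, against 633 to 639 in the others. Without homozygous 3 the homozygous minus wild type difference of Chd5 was 0.281 in place of 0.200.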

How the results depend on the processing

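No member passed an adjusted p of 0.05 in the reported fit or under most alternatives, the exceptions being array weights and 1 array left out. With array weights 13 members were called in homozygous minus wild type, beside 18.6% of the array, and 10 in homozygous minus heterozygous, beside 12.7%. That fit gave homozygous 3 a weight of 12.03 and the other arrays 0.21 to 2.91. At an unadjusted p under 0.05, 22 members were then higher in the first, beside 40.2% of the other listed probe sets and 34.1% of the array, and 12 lower in the second, beside 39.3% and 9.94%. With 1 array left out 0 to 1 members were called in heterozygous minus wild type (Chd5 without heterozygous 4). The counts at an unadjusted p then ran from 18 to 42 in heterozygous minus wild type, from 2 to 22 in homozygous minus wild type and from 0 to 9 in homozygous minus heterozygous. In the same order, the members' medians ran from 0.236 to 0.35, from 0.126 to 0.23 and from -0.186 to -0.044. For heterozygous minus wild type the count of 38 was 15 after quantile normalization, with a median of 0.137. For homozygous minus heterozygous the count of 6 was 11 after median centring and 0 with only the groups compared. Groups did not overlap for 5 members in heterozygous against wild type after quantile normalization and for 9 after median centring. Without the 4 arrays of highest or lowest median the counts were 16 (homozygous minus wild type), 22 (heterozygous minus wild type) and 1 (homozygous minus heterozygous), with a median of 0.008 in the last and Phf16 at -0.006 in heterozygous minus wild type. The cause of these changes was not tested.

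With the replicate number as a block, the counts at an unadjusted p were 12 in heterozygous minus wild type and 0 in homozygous minus heterozygous. The numbers were not shown to pair the samples. With the headings of the deposited table in place of the labels, wild type and homozygous arrays change places. The count and median are then 0 and -0.167 for homozygous minus wild type, 6 and 0.134 for heterozygous minus wild type, and 38 and -0.289 for homozygous minus heterozygous. Single members were not recomputed for that exchange, which by construction turns their sign or swaps the comparisons.

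Over 60 differences of named members and 24 settings, 1398 of 1435 values kept their sign and side of the threshold, 18 passed it and 19 changed sign. The adjusted p-values of these differences in the reported fit were 0.289 or higher (limma), so the side of the threshold says little about stability. For homozygous minus wild type, quantile normalization gave Hdac4 -0.027 (1436758_at) and -0.041 (1454693_at), Smarcc2 -0.046, Smarcc1 -0.021, Brd9 -0.067, Cbx5 -0.005 and Dnmt1 -0.009. Median centring gave Hdac4 -0.003 and -0.025, Smarcc2 -0.016, Smarcc1 -0.004 and Brd9 -0.036. Array weights gave Chd5 -0.001, Smarcc2 -0.082, Hdac4 -0.004 (1454693_at) and Brd9 -0.008. With 1 array left out, Jarid2 in homozygous minus heterozygous ran from -0.061 to 0.128. Brightness limits what was measured for the 5 member probe sets with a mean intensity under 100.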
